A study of Mus musculus with 15 samples.

Results

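The mitochondrial genome of mammals is a small circle that encodes core subunits of the respiratory chain and the RNAs that translate them, while all other subunits are encoded in the nucleus. Both strands are transcribed as long precursors, which are cut at the tRNAs between the genes, and most of the resulting mRNAs receive a poly(A) tail. T cells enlarge their mitochondrial mass and respiratory capacity when they are activated. The results below are for 10 protein-coding genes of this genome, taken as the 10 rows of a raw count table of 27019 genes that carry their names: mt-Nd1, mt-Nd2, mt-Nd4, mt-Nd5 and mt-Nd6 (complex I, NADH dehydrogenase), mt-Cytb (complex III, cytochrome b), mt-Co1, mt-Co2 and mt-Co3 (complex IV, cytochrome c oxidase) and mt-Atp6 (complex V, ATP synthase). All 10 genes passed the filter on low counts, which kept 16057 genes.

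The libraries were made from poly(A) RNA of CD8+ T cells, taken from spleens of C57BL/6 OT-I mice aged 8 to 10 weeks. The T cell receptor transgene of OT-I mice recognises the ovalbumin peptide OVA257-264. There were 4 groups of 2 libraries each: Susd2-/- cells after 3 days with the peptide (day 3), wild-type (WT) cells after 3 days with the peptide, untreated Susd2-/- cells (day 0) and untreated WT cells. Susd2 codes for a sushi-domain protein of the cell membrane, and the labels give the genotype without the allele. A bead kit was used to isolate the CD8+ cells of all groups. The labels do not tell whether different mice gave the libraries of a group, and if they did not, the spread of the libraries and the p-values built on it are technical. In bulk libraries such as these, fewer cells of a type and less RNA per cell cannot be told apart.

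Library totals ran from 26829807 to 53846911 counts. Susd2 had 0 and 2 counts in the Susd2-/- libraries at day 3, against 16 and 10 in the WT libraries, and 1 and 3 counts in the Susd2-/- libraries at day 0, against 90 and 80 in the WT libraries. All 8 markers of CD8 T cells were detected in each group, with a summed level of 2706 to 2820 CPM (counts scaled to a common library total) at day 3 and 5306 to 5959 CPM at day 0. Each library was sequenced on 2 lanes, except WT day 3 library 2, which had 1 lane. That library also stood apart from the other WT library of day 3 in most of the genes described here, so values without it are given where a result rests on it.

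The sequences that matter first are the ends of the genes, because they show in which of these mRNAs the poly(A) tail completes the stop codon. The last 24 bases of each gene are given 5′ to 3′ on the coding strand, with the stop codon or what there is of it in capitals, from the GENCODE transcripts of the GRCm38 build. In mt-Nd4, mt-Cytb and mt-Co3 a single T follows the last codon, and the stop codon is completed by the poly(A) tail, as is known for these genes. The other 7 genes end in TAA or TAG. mt-Nd6 is the only one of the 10 on the minus strand, and its end overlaps that of mt-Nd5. The strand setting of the counting is not known here, so reads of mt-Nd6 and of transcripts antisense to it may not have been told apart.
mt-Nd1, chrM:3684-3707, plus strand: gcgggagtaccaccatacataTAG
mt-Nd2, chrM:4928-4951, plus strand: ctagccccccaactaattaccTAG
mt-Nd4, chrM:11521-11544, plus strand: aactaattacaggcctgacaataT
mt-Nd5, chrM:13542-13565, plus strand: ttatactcaattaatctcgagTAA
mt-Nd6, chrM:13552-13575, minus strand: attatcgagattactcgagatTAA
mt-Cytb, chrM:15265-15288, plus strand: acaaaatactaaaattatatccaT
mt-Co1, chrM:6849-6872, plus strand: ccaacctatgtaaaagtaaaaTAA
mt-Co2, chrM:7673-7696, plus strand: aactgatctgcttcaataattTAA
mt-Co3, chrM:9367-9390, plus strand: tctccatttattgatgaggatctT
mt-Atp6, chrM:8584-8607, plus strand: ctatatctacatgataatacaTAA

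A stretch of the mitochondrial genome is also present in the nuclear genome, as annotated pseudogenes on the minus strand of chromosome 1. A read from a copied part of a gene matches both places, so the copies bear on which of the 10 genes can be counted. The pseudogene Gm28661 was identical to mt-Co2 at 681 of 681 bases, Gm28437 to mt-Co3 at 783 of 783 and Gm10925 to mt-Atp6 at 678 of 678, which is nearly the whole length of each gene. Gm28439 was identical to mt-Nd4 over its first 876 of 1378 bases. Gm29216 matched the last 492 of 1545 bases of mt-Co1 at 486 bases. Of all 150-base windows of a gene, 99.4% of mt-Co2, 99.8% of mt-Co3, 99.4% of mt-Atp6, 59.2% of mt-Nd4 and 23.6% of mt-Co1 occurred without a mismatch in a transcript of another chromosome, against 0 windows of mt-Nd1, mt-Nd2, mt-Nd5, mt-Nd6 and mt-Cytb. The first 60 bases of mt-Co3 and of its copy show the identity.
mt-Co3, chrM:8607-8666, plus strand: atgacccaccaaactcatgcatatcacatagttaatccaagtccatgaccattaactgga
Gm28437, chr1:24613912-24613971, minus strand: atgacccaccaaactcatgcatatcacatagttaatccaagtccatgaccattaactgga
The differences between mt-Co1 and Gm29216 all lie at the start of the copy, where capitals mark the bases that differ. Counted from 1 at the first base of mt-Co1, with the base of mt-Co1 first, they are T1056A, C1057T, A1059G, A1060G, C1062A and A1066T.
mt-Co1, chrM:6381-6410, plus strand: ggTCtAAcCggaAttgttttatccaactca
Gm29216, chr1:24616168-24616197, minus strand: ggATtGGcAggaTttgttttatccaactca

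The 3 genes copied over nearly their whole length were listed far below the other 7. Levels between genes are compared as CPM per kilobase of gene, with library totals scaled by TMM factors. In WT cells at day 0 the order was mt-Co1 (5845 ± 110 CPM per kilobase), mt-Cytb (2373 ± 58.3), mt-Nd1 (2148 ± 29.6), mt-Nd2 (1258 ± 29.8), mt-Nd5 (765 ± 18.7), mt-Nd6 (656 ± 4.37) and mt-Nd4 (610 ± 3.94), all as mean ± SD over 2 libraries, and the libraries of neighbours in this order did not overlap. Below them came mt-Co2 (26.2 ± 1.85 CPM per kilobase), mt-Atp6 (22.5 ± 0.0229) and mt-Co3 (21.96 ± 3.38), of which mt-Atp6 and mt-Co3 overlapped. In Susd2-/- cells at day 0 the first 7 genes had the same order, and mt-Co1 stood at 4308 ± 121 CPM per kilobase. In WT cells at day 3 the libraries of mt-Cytb (1773 to 2320 CPM per kilobase) overlapped those of mt-Nd1 (1713 to 1829), and those of mt-Nd5 (594 to 751) overlapped those of mt-Nd6 (491 to 632), which overlapped those of mt-Nd4 (423 to 504). If the copied bases of mt-Nd4 are left out of its length, its level in WT cells at day 0 is 1675 ± 10.8 CPM per kilobase, between mt-Nd1 and mt-Nd2, so the place of mt-Nd4 in the order depends on whether reads in its copied part were counted.

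The same 3 genes also differed between the lanes of a library. Of the 7 libraries with 2 lanes, the share of counts in the lane named L002 over that in L001 was 1.82 to 2.97 for mt-Co2, 2.60 to 4.48 for mt-Co3 and 2.68 to 4.08 for mt-Atp6. The other 7 genes had ratios of 0.963 to 1.05. Over 10428 genes with a mean count per lane above 50, the median ratio was 0.999. In a ranking of these genes from high to low by each gene's lowest ratio over the libraries, mt-Atp6, mt-Co3 and mt-Co2 held the ranks 1, 2 and 3. WT day 3 library 2 has no L002 lane, so its summed counts of these 3 genes come from the lane with fewer of them. The cause of the lane difference was not tested. The 7 other genes are therefore described first in each comparison, and the 3 copied genes separately.

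**Figure D1:**
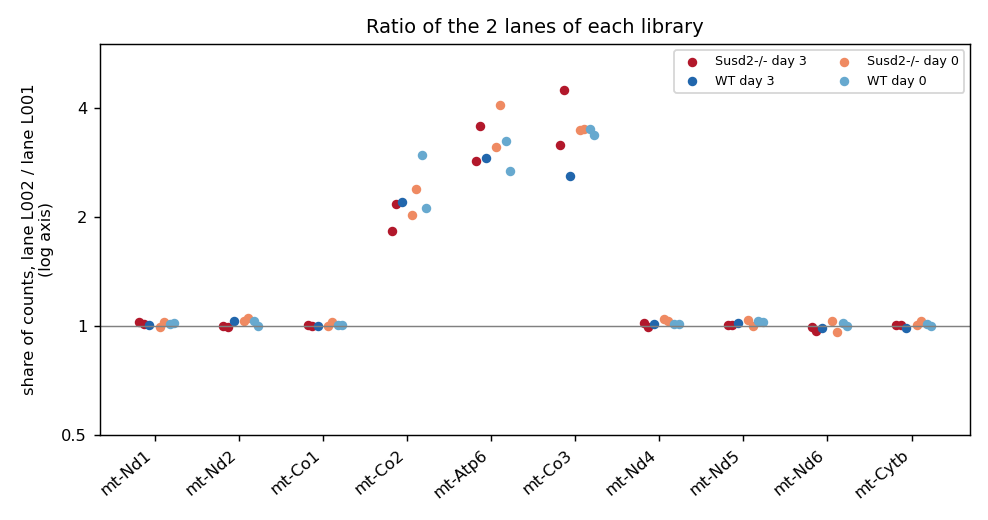
Ratio of the share of counts in lane L002 to that in lane L001 (log axis) for each of the 10 genes, in order along the mitochondrial genome; each point is 1 of the 7 libraries with 2 lanes. mt-Co2, mt-Atp6 and mt-Co3 lie between 1.82 and 4.48, and the other 7 genes between 0.963 and 1.05.

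Together the 10 genes took 1.123% and 1.169% of the counts of the Susd2-/- libraries at day 3, against 1.20% and 1.06% in WT libraries at day 3. At day 0 they took 1.52% and 1.49% of the counts of Susd2-/- libraries, against 1.85% and 1.90% in WT libraries. The group means were 1.15% ± 0.0328, 1.13% ± 0.101, 1.502% ± 0.0199 and 1.87% ± 0.0344 (SD, n = 2 each) in the order Susd2-/- day 3, WT day 3, Susd2-/- day 0 and WT day 0. The share was thus highest in WT cells at day 0, lower in Susd2-/- cells at day 0 and lowest at day 3, where the genotypes overlapped. mt-Co1 weighs most in it, with 36.5 to 51.1% of the summed counts of the 7 genes not copied over nearly their whole length. In Susd2-/- cells mt-Co1 fell from day 0 to day 3 (log2 fold change -0.58 ± 0.0572), while the median of those 7 genes was 0.07. The share thus does not stand for the 10 genes alike, and it is relative to all counts, not an amount per cell. The 95% Wilson interval of a library's share was at most 0.0101 percentage points wide. Such intervals cover counting error only and are too narrow here, since rows with a count of 2 outnumbered rows with a count of 1 by 1.69 to 2.04 times in every lane, so the counts are not independent fragments.

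**Figure D2:**
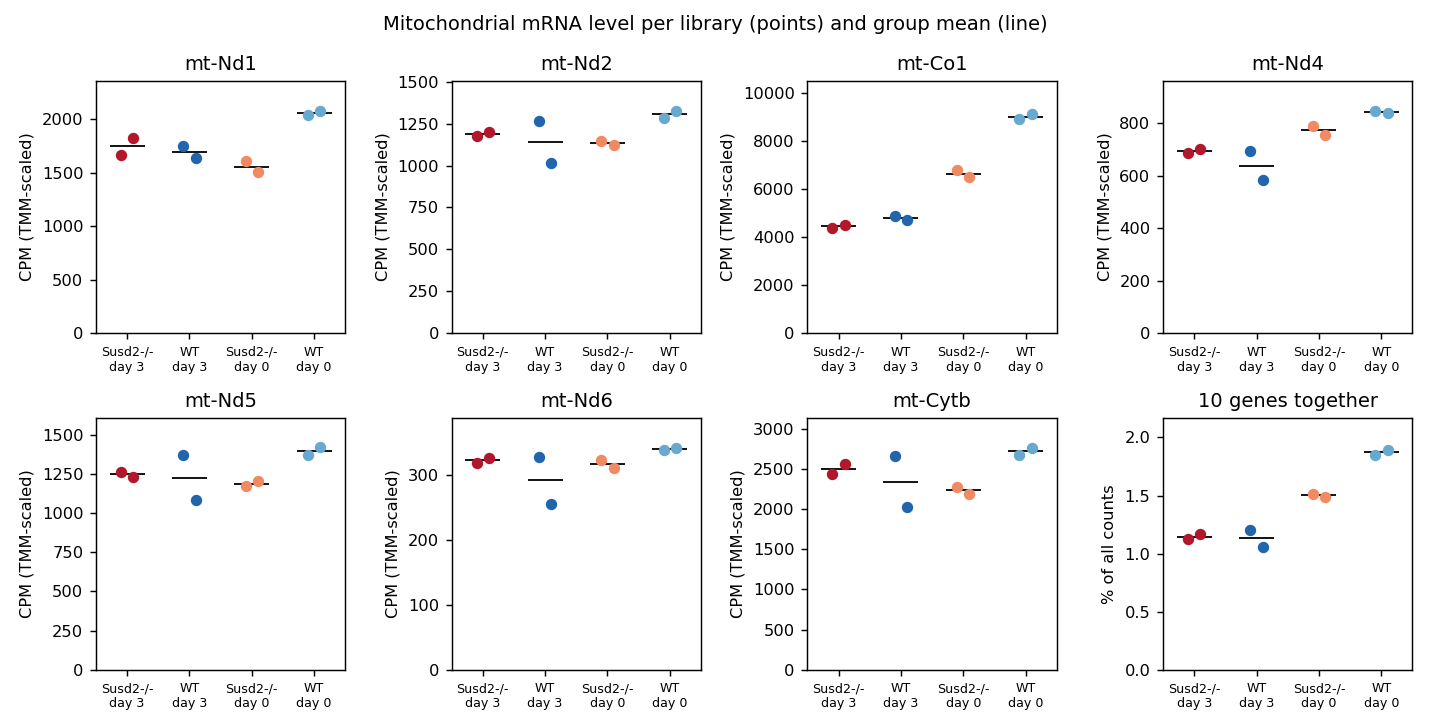
Level of the 7 genes that no nuclear copy covers over nearly their whole length (CPM with TMM scaling, axes from 0) and percent of all counts held by the 10 genes; points are libraries and lines are means of 2 libraries. In each of the 7 genes both Susd2-/- libraries of day 0 lie below both WT libraries of day 0, and WT day 3 has 1 low library in mt-Cytb, mt-Nd2, mt-Nd4, mt-Nd5 and mt-Nd6.

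The first comparison asks how untreated CD8+ T cells without Susd2 differ from untreated WT cells. mt-Co1 and mt-Nd1 fell in Susd2-/- cells, and all 7 genes were lower in both Susd2-/- libraries than in both WT libraries. mt-Co1, the catalytic subunit of cytochrome c oxidase, had 6788 and 6524 CPM in Susd2-/- libraries, against 8911 and 9151 CPM in WT libraries. Its log2 fold change was -0.44 ± 0.0571 (SE) with an adjusted p of 1.97e-05 in edgeR's quasi-likelihood test. mt-Nd1, a membrane subunit of complex I next to its quinone site, had 1612 and 1502 CPM in Susd2-/- libraries, against 2036 and 2076 CPM in WT libraries. Its log2 fold change was -0.40 ± 0.0634, with an adjusted p of 0.000150.

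The other 5 genes did not pass the test at day 0. mt-Cytb, the only subunit of complex III that this genome encodes, had 2278 and 2190 CPM in Susd2-/- libraries, against 2668 and 2762 CPM in WT libraries (log2 fold change -0.28 ± 0.103, adjusted p = 0.0808). mt-Nd5, a proton-pumping subunit of complex I, had 1173 and 1204 CPM in Susd2-/- libraries, against 1372 and 1420 CPM in WT libraries (-0.23 ± 0.0854, adjusted p = 0.0676). mt-Nd2, another pumping subunit, had 1148 and 1125 CPM in Susd2-/- libraries, against 1284 and 1327 CPM in WT libraries (-0.20 ± 0.0804, adjusted p = 0.0875). The gaps were narrowest in mt-Nd4, also a pumping subunit, and in mt-Nd6, with log2 fold changes of -0.12 ± 0.0700 and -0.11 ± 0.0909.

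Of the 3 copied genes, mt-Co3, a structural subunit of cytochrome c oxidase, fell at day 0. It had 9.59 and 8.92 CPM in Susd2-/- libraries, against 15.3 and 19.1 CPM in WT libraries, with a log2 fold change of -0.89 ± 0.195 and an adjusted p of 0.00290. Its call was lost, at values of similar size, without Susd2-/- library 4 (-0.84, adjusted p = 0.0530) and without WT library 4 of day 0 (-0.74, adjusted p = 0.0506). It was also lost when the counts of Gm28437 were added (-0.64, adjusted p = 0.437), a row with 1078 counts in 1 lane of Susd2-/- day 3 library 2 and 185 in its other lane. The adjusted p of mt-Co3 ran from 1.39e-06 to 0.437 over 24 alternatives. mt-Co2, which carries the copper centre that accepts electrons from cytochrome c, had 14.6 and 15.0 CPM in Susd2-/- libraries, against 17.0 and 18.8 CPM in WT libraries, and did not pass (adjusted p = 0.608). mt-Atp6, part of the proton channel of ATP synthase, had 11.2 and 10.7 CPM in Susd2-/- libraries, against 15.3 and 15.3 CPM in WT libraries, and did not pass (adjusted p = 0.592).

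In all, 3 of 10 genes fell at day 0 and none rose. The background is wide, as 12.1% of all genes tested fell, 11.5% rose, and 31.4% had both Susd2-/- libraries below both WT libraries (33.6% above), which held for 10 of the 10 genes here. The 10 genes are cut from shared precursors and are not independent of each other. The median log2 fold change was -0.23 over the 7 genes and 0.01 over all genes. When the day 0 libraries of each group were counted as 1 library, none of the 10 was called. When the 4 libraries of day 0 were fitted alone, all 10 were. The share of all genes called in these fits is not given here, so the counts have no background beside them. The median log2 fold change of the 7 genes was -0.25 and -0.24 in these fits, against -0.01 and -0.00305 for all genes.

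Markers of other spleen cells moved with genotype at day 0. Of 10 macrophage markers, 8 rose in Susd2-/- cells, with a summed level of 174 and 163 CPM in Susd2-/- libraries, against 74.9 and 74.8 CPM in WT libraries. The sum of 6 B cell markers was 690 and 631 CPM in Susd2-/- libraries, against 536 and 545 CPM in WT libraries. The sum of 4 plasma cell markers was 9.16 and 7.79 CPM in Susd2-/- libraries, against 37.8 and 35.8 CPM in WT libraries, and that of 5 natural killer cell markers was 14.4 and 14.8 CPM, against 27.6 and 25.2 CPM. No macrophage, B cell or natural killer cell marker was at 0 in either group, and 1 plasma cell marker was at 0 in Susd2-/- libraries. The sum of 8 CD8 T cell markers was 5582 and 5306 CPM in Susd2-/- libraries, against 5959 and 5909 CPM in WT libraries. The part of these differences in the mitochondrial values was not tested.

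At day 3 no gene of the 10 passed the test between the genotypes. With edgeR, 0 of 10 were called, against 0.137% of all genes tested (0.0498% higher and 0.0872% lower in Susd2-/- cells). Only 1 of the 10, mt-Co3, had an unadjusted p below 0.05, a count for which no share of all genes is given. DESeq2 and limma voom called 0 as well. In 6 of the 7 genes the libraries of the 2 genotypes overlapped. In all genes, 16.3% had both Susd2-/- libraries below and 17.4% above both WT libraries. mt-Co1 was the exception among the 7, with 4398 and 4515 CPM in Susd2-/- libraries, against 4866 and 4726 CPM in WT libraries, and a log2 fold change of -0.11 ± 0.0570 (adjusted p = 0.679). The median log2 fold change of the 7 genes was 0.06, against 0 for all genes (0.28 without WT library 1 and -0.06 without WT library 2), and their SEs of 0.0570 to 0.103 set what could be seen.

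This result rests on which WT library is used. WT library 2 of day 3 was at 0.764 to 0.841 of WT library 1 in mt-Cytb, mt-Nd2, mt-Nd4, mt-Nd5 and mt-Nd6, but at 0.971 in mt-Co1 and 0.937 in mt-Nd1. In the Susd2-/- libraries of day 3 the ratio of library 2 to library 1 was 0.973 to 1.096 in all 7 genes. mt-Cytb, for example, had 2432 and 2560 CPM in Susd2-/- libraries, against 2654 CPM in WT library 1 and 2028 CPM in WT library 2. Without WT library 1, the log2 fold changes of mt-Cytb (0.35, adjusted p = 0.0103), mt-Nd4 (0.30, 0.0372) and mt-Nd6 (0.38, 0.00237) passed as higher in Susd2-/- cells, as did those of the 3 copied genes, mt-Co2, mt-Co3 and mt-Atp6. Such a fit has 1 WT library at day 3, which is assumed to vary as the libraries of the other groups do. Without WT library 2 none of the 10 passed, and the values for mt-Cytb and mt-Nd4 were -0.06 and 0.03. The adjusted p over 24 alternatives ran up to 1 for mt-Cytb, mt-Nd4 and mt-Nd6, and leaving out WT library 1 was the only one that passed for each. The 3 copied genes had 13.2 and 14.9 CPM for mt-Co2, 8.22 and 9.53 CPM for mt-Co3 and 8.69 and 9.04 CPM for mt-Atp6 in Susd2-/- libraries. In WT library 1 they had 14.3, 7.78 and 8.66 CPM, and in WT library 2, which has the L001 lane alone, 6.37, 4.74 and 2.30 CPM. On lane L001 alone the log2 fold change of mt-Co3 was -0.36, opposite in sign to the value of 0.50 ± 0.204 from summed lanes, and it passed in neither.

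Between day 0 and day 3, naive cells become dividing effector cells. In WT cells, mt-Co1 fell to 4866 and 4726 CPM at day 3, against 8911 and 9151 CPM at day 0, a log2 fold change of -0.91 ± 0.0574 with an adjusted p of 2.55e-11. mt-Nd4 fell to 694 and 583 CPM at day 3, against 845 and 837 CPM at day 0 (-0.40 ± 0.0702, adjusted p = 4.97e-05), and mt-Nd1 fell to 1750.3 and 1640 CPM, against 2036 and 2076 CPM (-0.28 ± 0.0633, adjusted p = 0.000616). mt-Nd2 and mt-Nd6 passed narrowly, with log2 fold changes of -0.19 ± 0.0804 (adjusted p = 0.0397) and -0.22 ± 0.0910 (adjusted p = 0.0400). Without WT library 2 of day 3 those of mt-Nd2 and mt-Nd6 were -0.01 and -0.02 and did not pass, while mt-Co1 (-0.86), mt-Nd4 (-0.25) and mt-Nd1 (-0.20) passed. The adjusted p over 24 alternatives ran from 9.15e-05 to 0.912 for mt-Nd2 and from 9.97e-06 to 0.815 for mt-Nd6.

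mt-Cytb had 2654 and 2028 CPM at day 3 in WT cells, against 2668 and 2762 CPM at day 0, and mt-Nd5 had 1371 and 1083 CPM at day 3, against 1372 and 1420 CPM. Neither passed in edgeR, although mt-Cytb did in DESeq2 (adjusted p = 0.0425, in a range of 1.11e-05 to 0.993 over 24 alternatives), and in both the WT library 1 of day 3 lay just under the lower library of day 0. Of the copied genes, mt-Co3 fell to 7.78 and 4.74 CPM at day 3, against 15.3 and 19.1 CPM at day 0 (-1.45 ± 0.202, adjusted p = 3.87e-06). On lane L001 alone its log2 fold change was -0.75 (adjusted p = 0.0104), and with the counts of Gm28437 added the value was -1.35 but its call was lost (adjusted p = 0.0628), in a range of 2.55e-15 to 0.0628 over 24 alternatives. mt-Co2 and mt-Atp6 did not pass in edgeR, with log2 fold changes of -0.79 ± 0.325 and -1.47 ± 0.548. mt-Co2 was at -1.48 without WT library 1 of day 3, where it passed, and at -0.29 without WT library 2, where it did not. mt-Atp6 passed without library 1 (-2.73, adjusted p = 1.11e-17), without library 2 (-0.79, adjusted p = 0.000238) and on lane L001 alone (-1.18, adjusted p = 0.00200), in a range up to 0.299. limma voom called both genes and DESeq2 called mt-Atp6. In all, 6 of 10 genes fell in WT cells, where 39.0% of all genes fell, and all 10 had both libraries of day 3 below both of day 0, which held for 46.9% of all genes (41.4% above). The median log2 fold change of the 7 genes was -0.22, against -0.14 for all genes. Without WT library 2 of day 3 it was -0.02, against -0.18 for all genes, and without WT library 1 it was -0.41, against -0.19.

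In Susd2-/- cells 1 of the 10 genes fell between day 0 and day 3 and 1 rose. mt-Co1 fell to 4398 and 4515 CPM at day 3, against 6788 and 6524 CPM at day 0, a log2 fold change of -0.58 ± 0.0572 with an adjusted p of 2.21e-08. mt-Nd1 rose to 1668 and 1828 CPM at day 3, against 1612 and 1502 CPM at day 0 (0.17 ± 0.0633, adjusted p = 0.0228). The sign of mt-Nd1 turned to -0.03 with library totals and to -0.02 with upper-quartile scaling, which moved the median of all genes by -0.20 and -0.19, and its call was also lost without Susd2-/- library 2 of day 3 or library 4 of day 0 and with a filter of at least 10 counts in every library (adjusted p over 24 alternatives, 0.00161 to 0.787). The other 8 genes did not pass. Among them mt-Cytb had 2432 and 2560 CPM at day 3, against 2278 and 2190 CPM at day 0 (0.16 ± 0.103, adjusted p = 0.184). mt-Nd4 had 687 and 700.5 CPM, against 790 and 757 CPM, and just missed the threshold (-0.16 ± 0.0700, adjusted p = 0.0508). Of 24 alternatives, mt-Cytb passed in 6 and mt-Nd4 in 7. For comparison, 76.4% of all genes passed in Susd2-/- cells, 36.7% as higher and 39.7% as lower at day 3. Both libraries of day 3 were below both of day 0 in 3 of the 10 genes, against 46.8% of all genes, and above them in 4, against 41.8%.

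**Figure D3:**
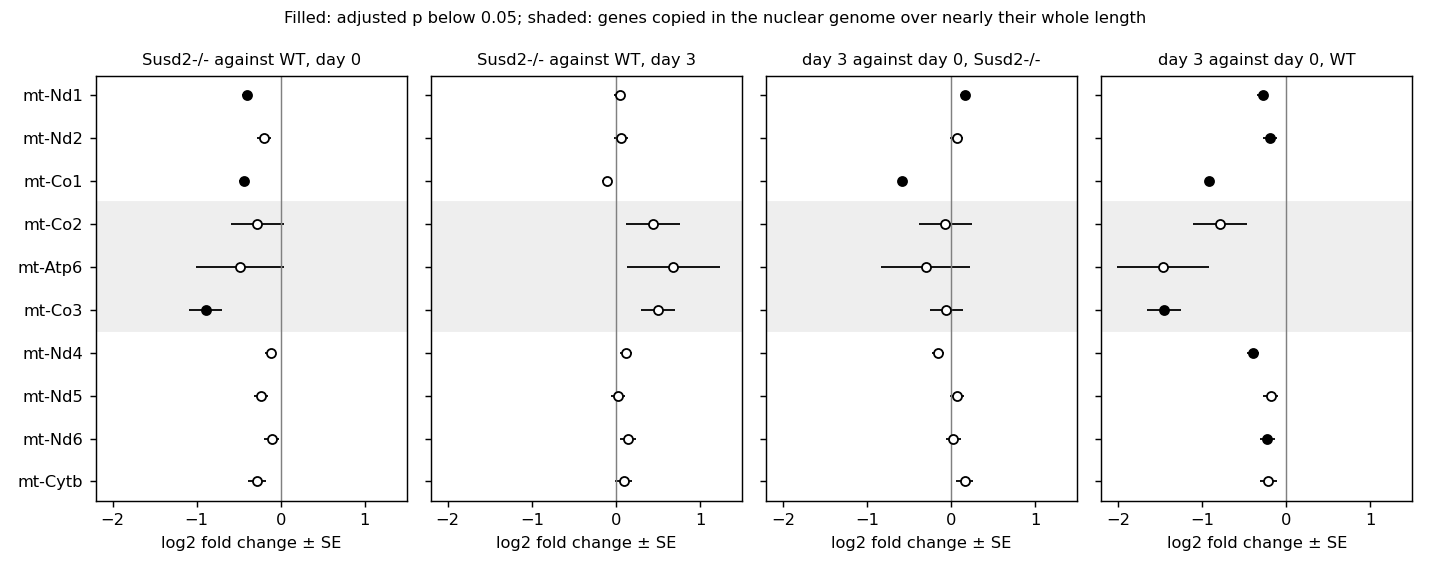
Log2 fold change with its SE for the 10 genes in 4 comparisons, in order along the mitochondrial genome; filled points passed the test at an adjusted p below 0.05, and shading marks mt-Co2, mt-Atp6 and mt-Co3. At day 0 all 10 values lie below 0, at day 3 none passed between genotypes, and mt-Co1 is the lowest of the 7 unshaded genes in each panel.

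The test of the difference between these responses is the interaction of genotype and day, which is the change from day 0 to day 3 in Susd2-/- cells minus that in WT cells. It was above 0 for all 10 genes and passed for 3 of them, against 6.60% of all genes that passed in this direction and 6.88% in the other. It was 0.33 ± 0.0806 on the log2 scale for mt-Co1 (adjusted p = 0.00963), 0.45 ± 0.0896 for mt-Nd1 (adjusted p = 0.00265) and 1.40 ± 0.282 for mt-Co3 (adjusted p = 0.00321). The interactions of mt-Co1 and mt-Nd1 passed both without WT library 1 (0.42 and 0.56) and without WT library 2 (0.36 and 0.44) of day 3, and the call of mt-Co1 was lost at values of 0.40 and 0.33 when WT library 3 or 4 of day 0 was left out. That of mt-Co3 was lost on lane L001 alone (0.44, adjusted p = 0.4996) and with the copy's counts added (2.12, adjusted p = 0.141), in a range of 1.35e-07 to 0.4996 over 23 alternatives. The comparisons share libraries: those of WT at day 0 enter the genotype comparison at day 0, the day comparison in WT cells and the interaction.

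The make-up of the mitochondrial counts differed between days as well as their share of all counts. mt-Co1 made up 36.7% ± 0.210 of the summed counts of the 7 genes in Susd2-/- cells and 39.7% ± 2.89 in WT cells at day 3, against 48.0% ± 0.125 in Susd2-/- cells and 51.1% ± 0.0166 in WT cells at day 0 (SD, n = 2 each). mt-Cytb made up 20.5% ± 0.250 in Susd2-/- cells and 19.2% ± 1.85 in WT cells at day 3, against 16.1% ± 0.0418 in Susd2-/- cells and 15.4% ± 0.0939 in WT cells at day 0. mt-Nd1 made up 14.4% ± 0.578 and 14.004% ± 0.663 at day 3 in Susd2-/- and WT cells, against 11.2% ± 0.272 and 11.6% ± 0.0547 at day 0. mt-Nd6, the gene of the other strand, made up 2.65% ± 0.0213 in Susd2-/- cells and 2.39% ± 0.202 in WT cells at day 3, against 2.28% ± 0.00562 in Susd2-/- cells and 1.93% ± 0.0227 in WT cells at day 0. Within each genotype the share of mt-Co1 was lower in both libraries of day 3 than in both of day 0, and the shares of mt-Cytb, mt-Nd1 and mt-Nd6 were higher. These are shares of 1 sum, so a lower share of mt-Co1 raises the others.

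**Figure D4:**
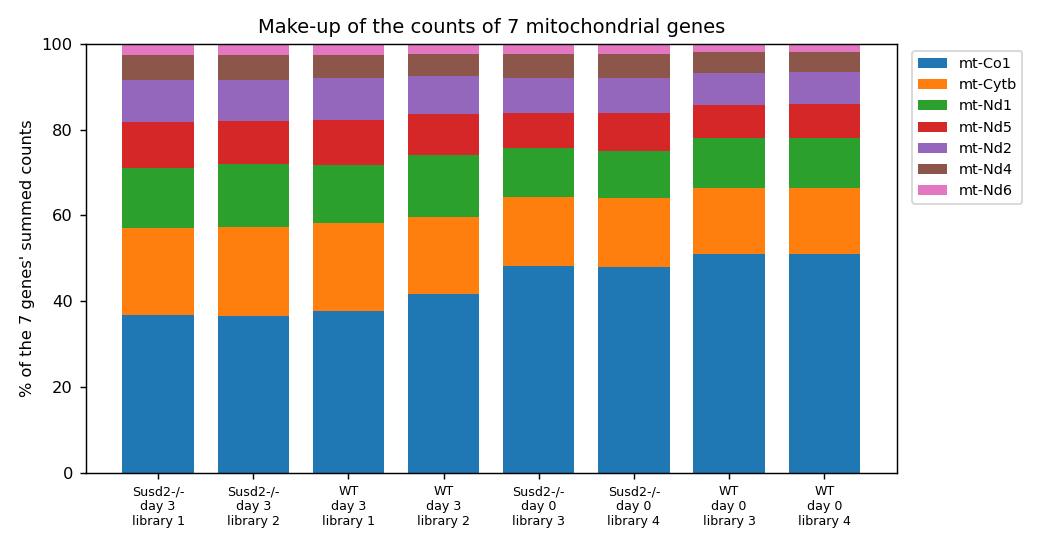
Percent of the summed counts of 7 mitochondrial genes held by each gene, 1 bar per library. The mt-Co1 segment is 36.5 to 41.7% in the 4 libraries of day 3 and 47.9 to 51.1% in the 4 libraries of day 0.

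mt-Rnr1 and mt-Rnr2 encode the small and large rRNA of the mitochondrial ribosome, and poly(A) selection retains only part of them. mt-Rnr2 fell in Susd2-/- cells at day 0, with 1040 and 1005 CPM, against 1334 and 1312 CPM in WT cells (log2 fold change -0.37 ± 0.0647, adjusted p = 0.000374), and so did mt-Rnr1 (-0.24 ± 0.0642, adjusted p = 0.0107). From day 0 to day 3 both rose, mt-Rnr1 by log2 fold changes of 0.79 ± 0.0643 in Susd2-/- cells and 0.52 ± 0.0641 in WT cells, and mt-Rnr2 by 0.58 ± 0.0648 and 0.22 ± 0.0646. The rise of mt-Rnr2 in WT cells was lost with library totals (0.04), with upper-quartile scaling (0.03) and without WT library 1 of day 3 (0.15). The fall of mt-Rnr1 at day 0 was lost when WT library 3, WT library 4 or Susd2-/- library 4 was left out, at -0.26 to -0.19. It was also lost with the day 0 libraries of WT alone (-0.24) or of each group (-0.25) counted as 1. Of the tRNA rows, the counts of mt-Tp, named for the proline tRNA, rose by 0.95 ± 0.163 in Susd2-/- cells and 0.55 ± 0.162 in WT cells over the same days. This rise was lost in WT cells without WT library 1 of day 3 (0.32). Whether the counts of the tRNA rows come from the tRNAs, from precursors or from the opposite strand was not tested. In the main edgeR fit mt-Tn passed in no comparison and mt-Tc was below the filter. With at least 10 counts in every library, edgeR called mt-Tn lower at day 3 in WT cells (-1.08, adjusted p = 0.0333).

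The nuclear genes that encode the rest of the respiratory chain fell in part between genotypes at day 0 and mostly rose over time. At day 0, 42 of 75 nuclear subunits of complexes I to V fell in Susd2-/- cells and 0 rose, with a median log2 fold change of -0.25, against 12.1% of all genes that fell. By complex, 20 of 36 fell in complex I, 1 of 4 in complex II, 5 of 9 in complex III, 7 of 11 in complex IV and 9 of 15 in complex V. Ndufv2, an electron-transfer subunit of complex I, fell by 0.50 ± 0.0674 on the log2 scale, Uqcrh, the hinge protein of complex III, by 0.52 ± 0.0841, Cox7b of complex IV by 0.60 ± 0.0732 and Atp5g2, a subunit of the rotor ring of complex V, by 0.58 ± 0.0675. At day 3, 0 of the 75 passed between genotypes in edgeR, DESeq2 or voom. In edgeR 6 had an unadjusted p below 0.05, a count for which no share of all genes is given.

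The counts over time were large. In Susd2-/- cells 70 of 75 rose and 1 fell, with a median log2 fold change of 1.15. Of all genes, 36.7% rose and 39.7% fell there, with a median of -0.12. In WT cells 63 of 75 rose and 6 fell, with a median of 0.81. Of all genes, 36.2% rose and 39.0% fell there, with a median of -0.14. The 7 mitochondrial genes had medians of 0.07 in Susd2-/- cells and -0.22 in WT cells over the same days. The WT median was -0.02 without WT library 2 of day 3, and the Susd2-/- median was -0.14 with library totals, where that of all genes was -0.32. In complex IV, Cox5a rose by 1.69 ± 0.0772 in Susd2-/- cells and 1.58 ± 0.0772 in WT cells on the log2 scale, while mt-Co1 of the same complex fell. In complex III, Cyc1, which encodes cytochrome c1, rose by 1.53 ± 0.0700 in Susd2-/- cells and 1.53 ± 0.0701 in WT cells, while mt-Cytb did not pass in either genotype. Markers of most other cells were lower at day 3. The 10 macrophage markers summed to 6.31 to 10.1 CPM at day 3, against 74.8 to 174 CPM at day 0. Of the 10, 6 in Susd2-/- cells and 5 in WT cells were at 0 at day 3. The 6 B cell markers summed to 242 to 271 CPM at day 3, against 536 to 690 CPM at day 0. The 4 plasma cell markers went the other way in Susd2-/- cells, with 29.1 and 29.0 CPM at day 3, against 9.16 and 7.79 CPM. In WT cells they had 25.7 and 23.2 CPM at day 3, against 37.8 and 35.8 CPM. The nuclear-retained RNAs Malat1 and Neat1 summed to 119 to 138 CPM at day 3, against 1665 to 2223 CPM at day 0. The part of these shifts in the mitochondrial values was not tested.

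**Figure D5:**
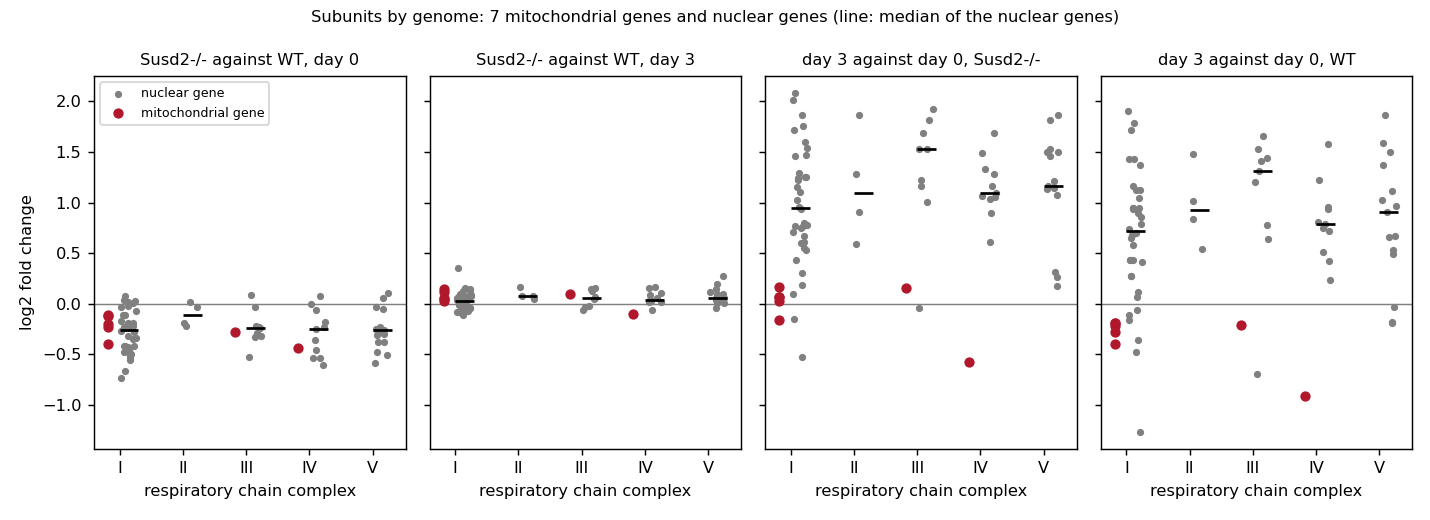
Log2 fold change of respiratory chain subunits by complex in 4 comparisons; grey points are 75 nuclear genes with a line at their median in each complex, and red points are the 7 mitochondrial genes other than mt-Co2, mt-Co3 and mt-Atp6. Nuclear and mitochondrial genes lie mostly below 0 at day 0 between genotypes, and most nuclear genes lie above the mitochondrial genes in the comparisons of days.

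At day 0, lists of genes that act on the mitochondrial genome are set against 12.1% of all genes that fell and 11.5% that rose. Of 11 transcription genes 5 fell in Susd2-/- cells and 0 rose. Tfam, which packages mitochondrial DNA and starts its transcription, fell by 0.30 ± 0.0772 on the log2 scale, and Tefm, the elongation factor of the mitochondrial polymerase, by 0.58 ± 0.173. The other 4 lists lay nearer these shares. Of 20 genes of RNA processing, stability and decay, 4 fell and 2 rose: Trmt10c, a subunit of the enzyme that cuts the 5′ ends of tRNAs from the precursors, fell by 0.63 ± 0.0770, and Mtpap, the mitochondrial poly(A) polymerase, rose by 0.45 ± 0.0940. Of 14 genes of DNA replication and the nucleoid 3 rose and 2 fell, of 14 translation factors 1 fell (Mtif3), and of 9 regulators of biogenesis 2 rose. None of these lists had a gene called between genotypes at day 3 in edgeR, DESeq2 or voom. At an unadjusted p below 0.05 the edgeR counts at day 3 were 0 for transcription, 2 for RNA processing, 1 for DNA replication, 1 for translation and 0 for biogenesis. The share of all genes below that p is not given here, so these counts have no background beside them.

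Over time 36.7% of all genes rose and 39.7% fell in Susd2-/- cells, and 36.2% rose and 39.0% fell in WT cells. Of the 20 RNA processing genes 17 rose in Susd2-/- cells and 16 in WT cells, and 0 fell in either. Lrpprc, which binds and stabilises mitochondrial mRNAs, rose by 1.43 ± 0.0658 in Susd2-/- cells and 1.46 ± 0.0662 in WT cells on the log2 scale. Of the 11 transcription genes 5 rose and 3 fell in Susd2-/- cells, and 6 rose and 3 fell in WT cells. Mrpl12, a ribosomal protein that also binds the mitochondrial RNA polymerase, rose by 2.65 ± 0.0725 in Susd2-/- cells and 2.34 ± 0.0713 in WT cells. Of the 14 DNA replication genes 8 rose and 5 fell in Susd2-/- cells, and 8 rose and 4 fell in WT cells. Of the 14 translation factors 10 rose and 1 fell in Susd2-/- cells, and 9 rose and 3 fell in WT cells. Of the 9 biogenesis regulators 5 rose and 1 fell in each genotype.

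The nuclear genes whose level followed the summed counts of the 10 genes most closely were Tmem30a, Ss18, Rpl21-ps15, Arpc5 and Abracl. Their Pearson r with that sum ran from 0.985 to 0.994 on log2 CPM over the 8 libraries, among 5911 genes with an average log2 CPM of at least 5. Tmem30a, the closest, averaged 132 CPM in Susd2-/- cells and 129 CPM in WT cells at day 3, against 145 CPM in Susd2-/- cells and 181 CPM in WT cells at day 0. This is a description of 8 libraries in 4 groups, chosen as the highest of many values.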

How the data were processed

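The authors deposited raw counts per gene, 1 column per lane, as whole numbers with no normalization. Subread 2.0.1, SAMtools 1.10, HISAT2 2.1.0, fastp 0.23.2 and the build GRCm38 are listed, without roles, per the submitters' processing notes. The library kit keeps strand per the labels' protocols. How strand and reads with several matches were handled in counting is not given in the sources used here. Lanes of a library were summed, giving 8 libraries from 15 lanes. edgeR 4.0.16 (R 4.3.3, TMM, filterByExpr, robust quasi-likelihood F test, 4 residual degrees of freedom) was fitted on all 4 groups, with Benjamini-Hochberg adjustment over 16057 genes and calls at an adjusted p below 0.05. Each SE was taken as the absolute log2 fold change over the root of F. DESeq2 1.42.0 and limma 3.58.1 (voom) were alternatives. Sequences and positions came from GENCODE transcripts of GRCm38.

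The genes, lists and alternatives were chosen with earlier results of these data known. Nuclear genes were named by smallest adjusted p in their list. Library numbers did not pair the samples (correlation of deviations -0.0104 at day 3 and 0.00859 at day 0).

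The test between genotypes at day 0 was also run on 7 sets of simulated counts, each with 200 changed genes of 16057. Estimates were centred on the true changes, but false calls made up 9.86% of the calls, more than the nominal level. In such a setting adjusted p-values just under 0.05 are less secure than they read. In the data 23.6% of genes were called in this comparison, so the false share there may differ. The other comparisons were not simulated. An initial requirement on the share of changes recovered was not met, and it was replaced after that result was seen.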

Additional observations from a re-analysis of the deposited data

Results flagged for a closer look

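For 3 genes the change from day 0 to day 3 differed between Susd2-/- and WT cells by the interaction test in edgeR. The interaction on the log2 scale was 0.33 for mt-Co1, 0.45 for mt-Nd1 and 1.40 for mt-Co3. mt-Co1 fell in both genotypes, by 0.58 in Susd2-/- cells and by 0.91 in WT cells. mt-Nd1 rose by 0.17 in Susd2-/- cells and fell by 0.28 in WT cells. mt-Co3 did not pass in Susd2-/- cells and fell by 1.45 in WT cells, and it is one of the 3 genes whose counts differed between lanes.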

How the results depend on the processing

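The counts of the 10 genes called at day 0 between genotypes (3) were 6 with no filter on low counts, 10 with the 4 libraries of day 0 alone, 0 with the day 0 libraries of each group as 1, 6 on lane L002 alone and 2 to 7 when 1 library was left out. At day 3 (0) they were 0 to 6 when 1 library was left out, with 6 without WT day 3 library 1. For days in WT cells (6) they were 10 with library totals, 10 with upper-quartile scaling, 3 with day 0 libraries as 1 and 4 to 10 when 1 library was left out. For days in Susd2-/- cells (2) they were 1 with day 0 libraries as 1, 1 with library number as a replicate block, 5 on lane L002 alone and 1 to 3 when 1 library was left out. For the interaction (3) they were 9 with no filter, 1 with day 0 libraries as 1 and 2 to 10 when 1 library was left out. With the block the other counts were 4 (day 0), 0 (day 3), 4 (WT days) and 3 (interaction), and the numbers do not pair the samples. Signs turned for mt-Nd2 across days in WT cells on lane L002 alone (0.0207) and for mt-Nd1 across days in Susd2-/- cells with library totals (-0.0340) and upper-quartile scaling (-0.0199). Of 1190 values of single genes under alternatives, 1010 kept sign and side of the threshold, 42 differed in sign but passed in neither fit, 48 lost the call, 87 gained it and 3 turned the sign of a call. The causes were not tested. A fit on only the libraries of a comparison gives no separate value for the interaction, which uses all of them. Lane L002 alone also leaves out WT day 3 library 2, which has no such lane, and without that library mt-Nd2 was already at -0.0113 and the count at day 0 at 7. Lane L002 alone and adding the counts of the nuclear copies were chosen after seeing the data. With 2 libraries per group, 1 library decides several counts. The share of all genes called under each alternative is not given beside these counts, so they have no background. For days in WT cells the median log2 fold change of all genes was -0.32 with library totals and -0.33 with upper-quartile scaling. It was -0.14 in the main fit, so the 10 calls with these scalings came with a shift of all genes.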

Other observations

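Of the mitochondrial protein-coding rows outside the 10, mt-Nd3 differed most between genotypes. mt-Nd3, a small subunit of complex I, had 28 and 52 counts in Susd2-/- libraries at day 3, against 169 and 93 in WT libraries, and 16 and 30 counts in Susd2-/- libraries at day 0, against 152 and 150 in WT libraries. It fell in Susd2-/- cells at both days, with log2 fold changes of -2.14 ± 0.342 at day 3 (adjusted p = 0.0160) and -2.69 ± 0.362 at day 0 (adjusted p = 2.86e-05, edgeR). Its nuclear copy Gm28438, which matches it at 344 of 345 bases with the substitution T3C (base of mt-Nd3 first, counted from its first base), rose at both days. Gm28438 had 385 and 710 counts in Susd2-/- libraries at day 3, against 11 and 9 in WT libraries, and 177 and 136 counts in Susd2-/- libraries at day 0, against 22 and 15 in WT libraries. Its change was 5.30 ± 0.290 at day 3 and 3.08 ± 0.273 at day 0 on the log2 scale. At both days the groups did not overlap in either row. With the counts of Gm28438 added, the value of mt-Nd3 was 0.09 at day 0, which did not pass, and 1.61 at day 3, which passed as higher in Susd2-/- cells. The fall of mt-Nd3 itself at day 3 was lost without Susd2-/- library 2 (-2.21). It was also lost on lane L002 alone (-1.90) and with the 4 libraries of day 3 alone (-2.15). The lane ratio of mt-Nd3 was 1.09 to 4.12, and the cause of these differences was not tested.

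The copy of mt-Co3, Gm28437, had 1 lane far from the rest. In Susd2-/- day 3 library 2 it had 1078 counts in lane L001 and 185 in lane L002. mt-Nd4l and mt-Atp8, the remaining protein-coding rows, had 22 to 59 and 9 to 67 counts per library. Neither passed in a comparison of the main edgeR fit. limma voom called mt-Atp8 lower at day 3 in WT cells (-1.42, adjusted p = 0.0156). So did edgeR with library totals (adjusted p = 0.0291), upper-quartile scaling (0.0267), no filter (0.0308) and mt- rows left out of the scaling (0.0487). Without WT library 2 of day 3 its value was -0.33. At day 0 edgeR called mt-Nd4l lower in Susd2-/- cells with at least 10 counts in every library (adjusted p = 0.0477). It did so too with the 4 libraries of day 0 alone (0.0391). The copy of mt-Nd4l, Gm10222, had 72 and 143 counts in Susd2-/- libraries at day 3, against 21 and 12 in WT libraries, and rose (2.24 ± 0.420, adjusted p = 0.0395).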
